A study of Mus musculus with 8 samples.

Results

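Medium spiny neurons, the projection neurons that make up most of the striatum, are defined during development by a small set of transcription factors and cofactors, and the transcripts of 9 of these genes (Bcl11b, Foxp1, Foxp2, Meis2, Ebf1, Isl1, Sp9, Mn1 and Eya1) were followed in striatal RNA of R6/2 mice and their wild-type controls. The genes were taken from a list of names, and every probe set that the platform annotation gives to one of them was kept: 33 of the 45037 probe sets tested, for 8 of the 9 genes among 18193 genes on the array. Sp9 had no probe set under its name in that annotation and was not analysed here. The 33 probe sets were spread unevenly, with 8 for Foxp1, 6 for Foxp2, 5 for Ebf1, 4 each for Bcl11b and Meis2, 3 for Eya1, 2 for Isl1 and 1 for Mn1. Total striatal RNA of 4 R6/2 mice (numbers 64, 65, 70 and 78) and 4 wild-type mice (numbers 42, 48, 54 and 63) had been hybridised to Affymetrix arrays, 1 array per mouse. Every mouse was a female of 85 days (12 weeks), and the strain was given as C57Bl/6 / CBA. R6/2 mice carry a transgene with the promoter and the first exon of the human huntingtin gene with an expanded CAG repeat, which is not limited to the striatum, and they are a model of Huntington's disease. The fifth wild-type mouse of the design text was not analysed here. The labels number each mouse separately, and they give no batch.

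Bcl11b, also known as Ctip2, is a zinc finger factor that medium spiny neurons of both output pathways need in order to mature. Foxp1 and Foxp2 are related forkhead repressors, Meis2 is a homeodomain factor of the striatal primordium, and Mn1 is a transcriptional coregulator. Isl1, a LIM homeodomain factor, and Ebf1, a helix-loop-helix factor, act in neurons of the direct pathway to the nigra, and Isl1 also marks striatal cholinergic interneurons. Sp9 acts in neurons of the indirect pathway to the external pallidum. Eya1 is a phosphatase that serves as a coactivator of homeodomain proteins. In the adult striatum several of these factors stay on and maintain the genes that give medium spiny neurons their identity.

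Values are log2 expression on a common scale, and array medians lay between 5.08 and 5.13. Of 33 probe sets, 30 lay on all 8 arrays above 3.67, the highest value of 9 probe sets of Y-linked genes, which serve here as a background level in these females. Values of different probe sets are not compared with each other, since each probe set has its own response. The 10 measured markers of medium spiny neurons lay above that background on every array. Markers of other tissues, such as Slc17a6 of the thalamus and Ttr of the choroid plexus, did so too. Passing this level therefore does not test the tissue label. In bulk tissue, fewer cells of a type and less RNA per cell cannot be told apart.

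In R6/2 striatum the transcripts of Bcl11b, Foxp1 and Mn1 were lower, those of Isl1 were higher, and no probe set of Foxp2 or Eya1 passed the test. Bcl11b fell the most, to 59.6% of its wild-type level by the probe set 1438784_at. One probe set of 5 for Ebf1 was called higher and one of 4 for Meis2 was called lower. In all, 10 of the 33 probe sets (30.3%) were called lower, against 4.59% of all probe sets, and 3 (9.09%) were called higher, against 5.54% of all probe sets, by limma (Benjamini-Hochberg adjusted p under 0.05 over all 45037 probe sets), which called 10.1% of all probe sets in either direction. All R6/2 values lay on one side of all wild-type values for 13 of 33 (39.4%), against 16.1% of all probe sets. Probe sets of 1 gene measure 1 transcript pool and are not independent, so these shares describe the list. The median log2 difference over the 33 was -0.091, against -0.017 over all probe sets. The count of 10 fell to 6 without R6/2 mouse 64, R6/2 mouse 70 or wild-type mouse 42, and to 5 without R6/2 mouse 78, wild-type mouse 48 or wild-type mouse 54. The count of 3 fell to 0 without R6/2 mouse 70 or wild-type mouse 48, and to 1 without R6/2 mouse 78 or wild-type mouse 63. Over all probe sets the shares called also dropped in most fits of 7 arrays, at the lowest to 3.02% lower and 2.86% higher. Without wild-type mouse 63, however, 4.63% were called lower, against 4.59% with all arrays.

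**Figure D1:**
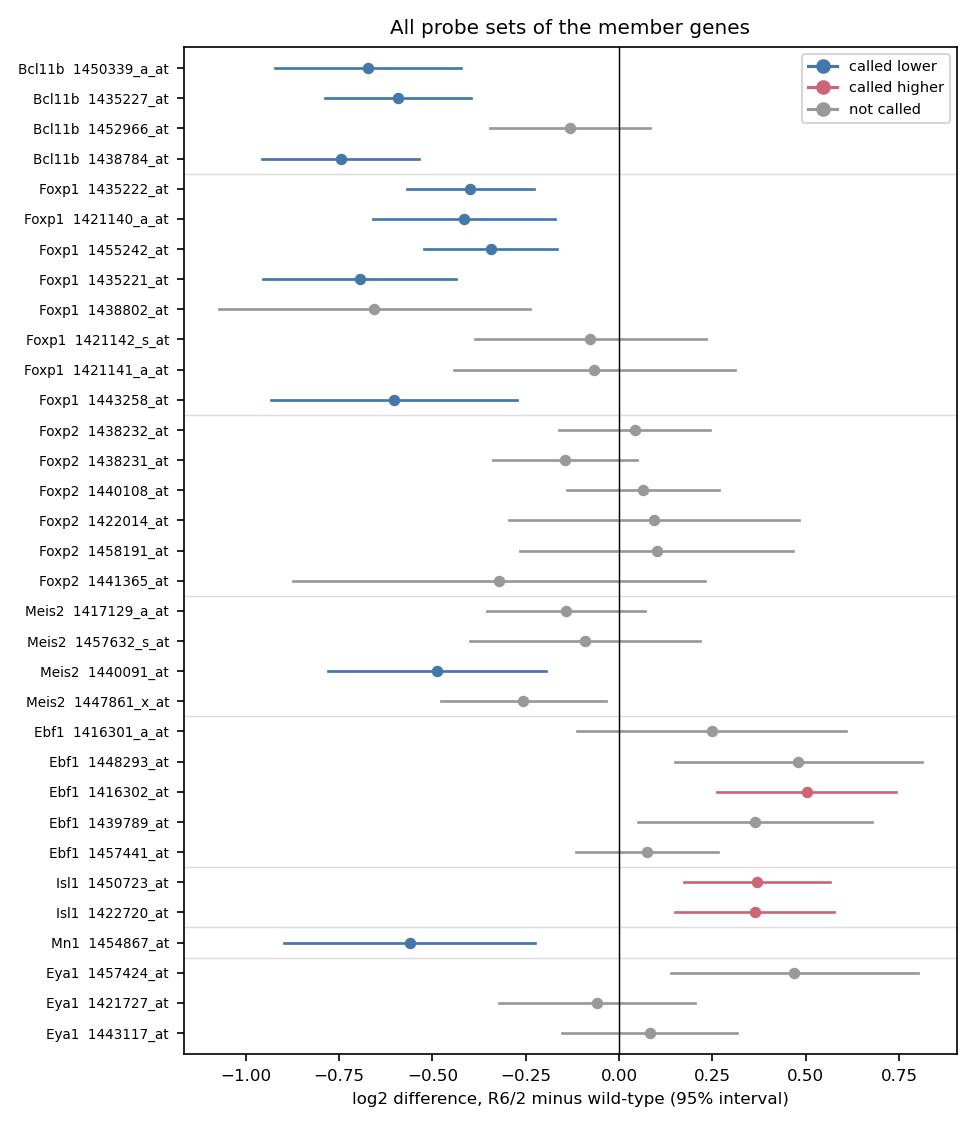
Log2 difference, R6/2 minus wild-type, of each of the 33 probe sets (point) with its 95% interval from the moderated fit (line), grouped by gene and coloured by call at an adjusted p under 0.05. The Bcl11b, Foxp1 and Meis2 points all lie left of 0 and the Ebf1 and Isl1 points all lie right of it, while those of Foxp2 lie on both sides.

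Promoters of 3 genes that moved in opposite directions are set side by side, Bcl11b and Foxp1 (lower) and Isl1 (higher). They come from RefSeq (GRCm38.p6), which held 6 of the 9 genes: Bcl11b, Foxp1, Meis2, Ebf1, Isl1 and Sp9. Each line gives the 250 bases before the gene's farthest upstream start, on the gene's own strand, with motif matches in capitals.
Bcl11b, chr12:108003415-108003664, minus strand: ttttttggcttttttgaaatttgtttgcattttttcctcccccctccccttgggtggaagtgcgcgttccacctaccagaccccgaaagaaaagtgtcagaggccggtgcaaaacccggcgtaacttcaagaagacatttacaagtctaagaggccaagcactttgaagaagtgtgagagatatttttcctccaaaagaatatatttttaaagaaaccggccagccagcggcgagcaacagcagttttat
Foxp1, chr6:99520994-99521243, minus strand: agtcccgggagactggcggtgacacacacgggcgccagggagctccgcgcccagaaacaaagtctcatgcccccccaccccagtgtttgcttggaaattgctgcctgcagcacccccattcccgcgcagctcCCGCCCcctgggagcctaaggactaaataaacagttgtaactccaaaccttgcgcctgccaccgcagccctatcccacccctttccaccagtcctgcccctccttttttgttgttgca
Isl1, chr13:116309689-116309938, minus strand: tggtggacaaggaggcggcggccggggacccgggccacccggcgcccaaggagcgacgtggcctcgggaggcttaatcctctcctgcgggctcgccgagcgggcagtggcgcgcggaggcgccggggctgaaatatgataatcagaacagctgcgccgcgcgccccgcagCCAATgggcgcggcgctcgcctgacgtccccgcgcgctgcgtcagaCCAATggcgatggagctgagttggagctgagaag
Searched on both strands, with overlaps allowed, were the GC box GGGCGG (in 32.7% of 32851 promoter windows of 250 bases), the CCAAT box CCAAT (33.8%), the TATA box TATAAA (12.4%), the cAMP response element TGACGTCA (1.55%), the forkhead motif GTAAACA (3.17%), the MEIS motif TGACAG (15.9%) and the palindromic EBF motif (0.779%). The Bcl11b window held 0 matches, that of Foxp1 held 1 GC box and that of Isl1 held 2 CCAAT boxes. Foxp1 has 2 further starts in the table, whose windows differ: 1 held 3 GC boxes and 1 CCAAT box (74.0% G and C) and the other held 1 MEIS motif (45.2% G and C). The share of G and C was 44.8% for Bcl11b, 60.8% for Foxp1 and 71.2% for Isl1, against a median of 52.4% over all windows. A match of letters is a description of the window and not a measured binding site.

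Bcl11b was lower in R6/2 mice by 3 of its 4 probe sets. By 1450339_a_at, the probe set with the highest mean, wild-type mice 42, 48, 54 and 63 had 11.83, 11.72, 11.65 and 11.35, and R6/2 mice 64, 65, 70 and 78 had 11.03, 10.78, 11.10 and 10.95. Every R6/2 mouse lay below every wild-type mouse, and wild-type mouse 63 was the lowest of its group. The means were 11.64 ± 0.21 and 10.97 ± 0.14 (SD, n = 4 each), a fall by 0.67 ± 0.11 (log2, SE) or 1.59-fold (limma adjusted p = 0.00575). By 1438784_at the 4 wild-type values ran from 9.14 to 9.52 and the 4 R6/2 values from 8.48 to 8.68, again without overlap, and Bcl11b fell by 0.75 ± 0.094 or 1.68-fold (limma adjusted p = 0.00169). By 1435227_at it fell by 0.59 ± 0.088 (limma adjusted p = 0.00340). The remaining probe set, 1452966_at, differed by only -0.13 ± 0.096 (limma adjusted p = 0.446), with overlapping groups. All 3 calls held without any 1 of the 8 arrays, with adjusted p of at most 0.0230.

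Foxp1 was lower by 5 of its 8 probe sets, and all 8 had negative differences. By 1435222_at, wild-type mice 42, 48, 54 and 63 had 11.26, 11.19, 11.15 and 11.002, and R6/2 mice 64, 65, 70 and 78 had 10.77, 10.80, 10.76 and 10.68. The R6/2 mice sat close together below all wild-type mice. The difference was -0.40 ± 0.076 (log2, SE), a 1.32-fold fall (limma adjusted p = 0.0106). The largest fall was by 1435221_at, from 9.69 ± 0.24 to 8.997 ± 0.10 (SD, n = 4 each), or 1.62-fold (limma adjusted p = 0.00572). These are 2 of 3 Foxp1 probe sets that the annotation ties to the same source sequence, and the other of the 3, 1455242_at, fell by 0.34 ± 0.080 (limma adjusted p = 0.0237). Foxp1 also fell by 1421140_a_at (-0.41 ± 0.11, limma adjusted p = 0.0396) and by 1443258_at (-0.60 ± 0.15, limma adjusted p = 0.0303).

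The other Foxp1 probe sets were not called. For 1438802_at the R6/2 mice had 7.22 (mouse 64), 7.92 (65), 7.90 (70) and 7.90 (78), and the wild-type mice 7.96 to 8.70. The groups did not overlap, yet the spread within each was wide, and the difference of -0.66 ± 0.19 missed the threshold (limma adjusted p = 0.0530). Probe sets 1421141_a_at and 1421142_s_at differed by -0.066 ± 0.17 and -0.077 ± 0.14. They share their source sequence with 1421140_a_at, which was called. The calls of 1435222_at and 1435221_at held without any 1 array. That of 1455242_at was lost without R6/2 mouse 64 or 78 or wild-type mouse 48 or 54, at most to an adjusted p of 0.0699. That of 1443258_at held only without R6/2 mouse 65 or wild-type mouse 63 and otherwise reached up to 0.0872, and that of 1421140_a_at held only without R6/2 mouse 64 or wild-type mouse 63 and otherwise reached up to 0.104. The latter was also lost with each array centred on its median (adjusted p = 0.0502).

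Foxp2, the paralog of Foxp1, stayed near its wild-type level. By 1438232_at, wild-type mice 42, 48, 54 and 63 had 10.02, 10.15, 10.28 and 9.87, and R6/2 mice 64, 65, 70 and 78 had 10.16, 10.07, 10.12 and 10.14. All R6/2 values lay within the wild-type range. The difference was 0.042 ± 0.091 (log2, SE, limma adjusted p = 0.823), with a 95% interval from -0.16 to 0.24. Its other 5 probe sets differed by -0.32 to 0.10, and all 6 had overlapping groups. The lowest difference, that of 1441365_at, was measured at a mean of 3.67, at the background level. A direct test of Foxp1 against Foxp2 was not run.

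Meis2 had negative differences by all 4 probe sets, and 1 was called. By 1417129_a_at, the probe set with the highest mean, wild-type mice had 10.90 (mouse 42), 11.21 (48), 11.09 (54) and 10.91 (63), and R6/2 mice had 10.89 (64), 10.94 (65), 11.003 (70) and 10.72 (78). The groups overlapped, and the difference was -0.14 ± 0.096 (log2, SE, limma adjusted p = 0.402), with a 95% interval from -0.35 to 0.071. Probe set 1440091_at fell by 0.49 ± 0.13 or 1.40-fold (limma adjusted p = 0.0433), and there the highest R6/2 value met the lowest wild-type value at 8.79. This call was lost with each array centred on its median (adjusted p = 0.0505) and when any array other than that of wild-type mouse 63 was left out, at most to an adjusted p of 0.109 without R6/2 mouse 64.

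Mn1 was lower by its single probe set. Wild-type mice 42, 48, 54 and 63 had 9.30, 8.71, 8.86 and 8.59, and R6/2 mice 64, 65, 70 and 78 had 8.40, 8.03, 8.35 and 8.45. The groups did not overlap, but wild-type mouse 63 and R6/2 mouse 78 stood close. The difference was -0.56 ± 0.15 (log2, SE), a 1.48-fold fall (limma adjusted p = 0.0426). The call was lost with median centring (adjusted p = 0.0540) and when any array other than that of wild-type mouse 63 was left out, at most to an adjusted p of 0.105 without R6/2 mouse 65.

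**Figure D2:**
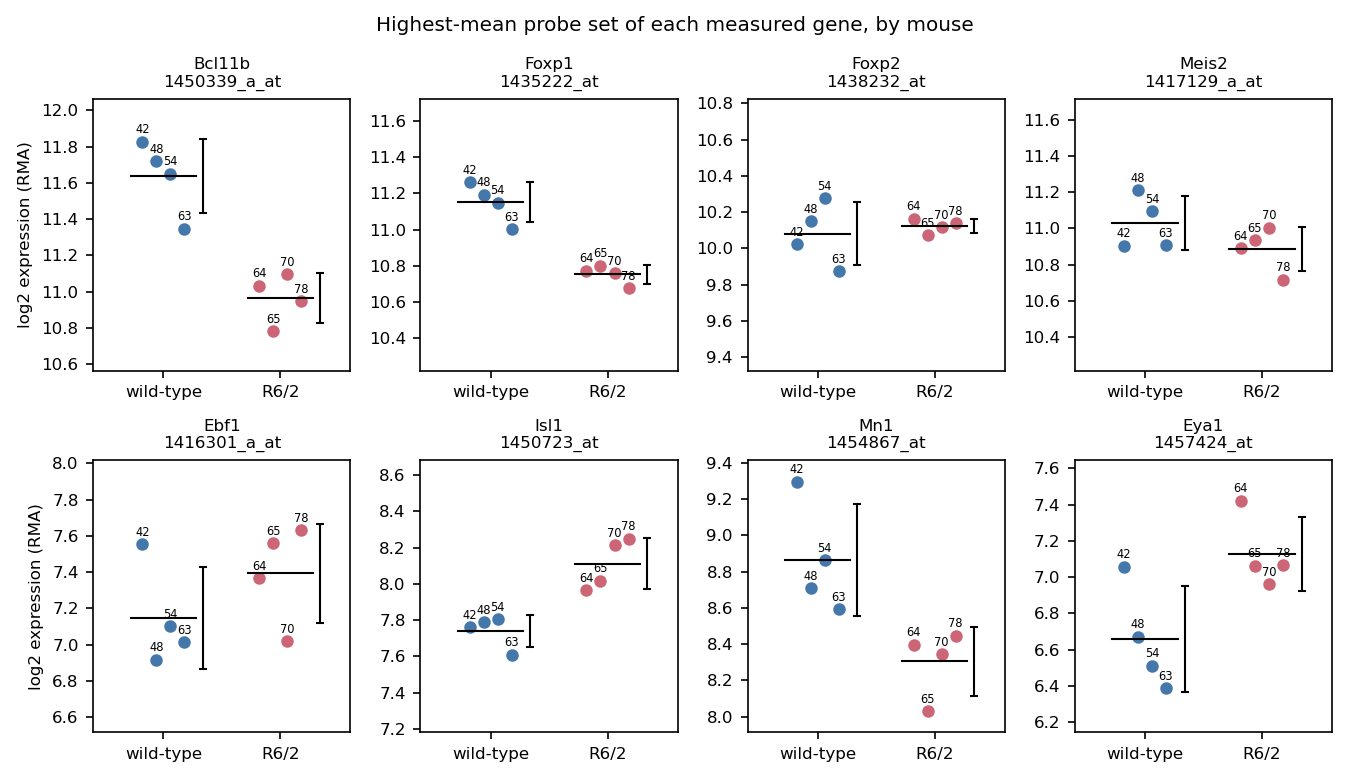
Log2 expression of the probe set with the highest mean of each of the 8 measured genes, 1 point per mouse with its number, the group mean as a horizontal line and ± 1 SD as a bar (n = 4 each); each panel spans 1.5 log2 units, and levels are not comparable between panels. The R6/2 points lie wholly below the wild-type points for Bcl11b, Foxp1 and Mn1, wholly above them for Isl1, and overlap with them for Foxp2, Meis2, Ebf1 and Eya1.

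Isl1 was higher in R6/2 mice by both of its probe sets, which share a source sequence. By 1450723_at, wild-type mice 42, 48, 54 and 63 had 7.76, 7.79, 7.81 and 7.61, and R6/2 mice 64, 65, 70 and 78 had 7.97, 8.02, 8.21 and 8.25. Every R6/2 mouse lay above every wild-type mouse, with mice 70 and 78 the highest. Isl1 rose by 0.37 ± 0.088 (log2, SE) or 1.29-fold (limma adjusted p = 0.0261), and by 0.36 ± 0.095 with 1422720_at (limma adjusted p = 0.0390). Both calls were lost without R6/2 mouse 70 (adjusted p = 0.0779 and 0.107), without R6/2 mouse 78 or without wild-type mouse 48 or 63. The second was also lost without wild-type mouse 54 and, by a narrow margin, after quantile normalization.

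Ebf1 had positive differences by all 5 probe sets, from 0.074 to 0.50, and 1 was called. By 1416302_at, wild-type mice 42, 48, 54 and 63 had 5.82, 5.66, 5.52 and 5.97, and R6/2 mice 64, 65, 70 and 78 had 6.12, 6.15, 6.30 and 6.40. The groups did not overlap, and Ebf1 rose by 0.50 ± 0.11 (log2, SE) or 1.42-fold (limma adjusted p = 0.0172). The same source sequence gave 1448293_at, which differed by 0.48 ± 0.15 (limma adjusted p = 0.0699), and 1416301_a_at, which has the highest mean and differed by 0.25 ± 0.16 (limma adjusted p = 0.388). Wild-type mouse 42, at 7.55, lay among the R6/2 mice by the latter. The call of 1416302_at was lost without wild-type mouse 48 (adjusted p = 0.0547) or R6/2 mouse 70 or 78. The mean of all Ebf1 probe sets, tested over genes, was called (0.33, limma adjusted p = 0.0146).

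Eya1 was not called. By 1457424_at, its only probe set well above background, wild-type mice had 7.06 (mouse 42), 6.67 (48), 6.51 (54) and 6.39 (63), and R6/2 mice had 7.42 (64), 7.06 (65), 6.96 (70) and 7.06 (78). Wild-type mouse 42 lay among the R6/2 mice. The difference was 0.47 ± 0.15 (log2, SE, limma adjusted p = 0.0746), and without wild-type mouse 42 it was called (adjusted p = 0.0167). The other 2 probe sets, at means of 3.93 and 3.82, lay close to the background level and differed by -0.058 and 0.082.

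**Figure D3:**
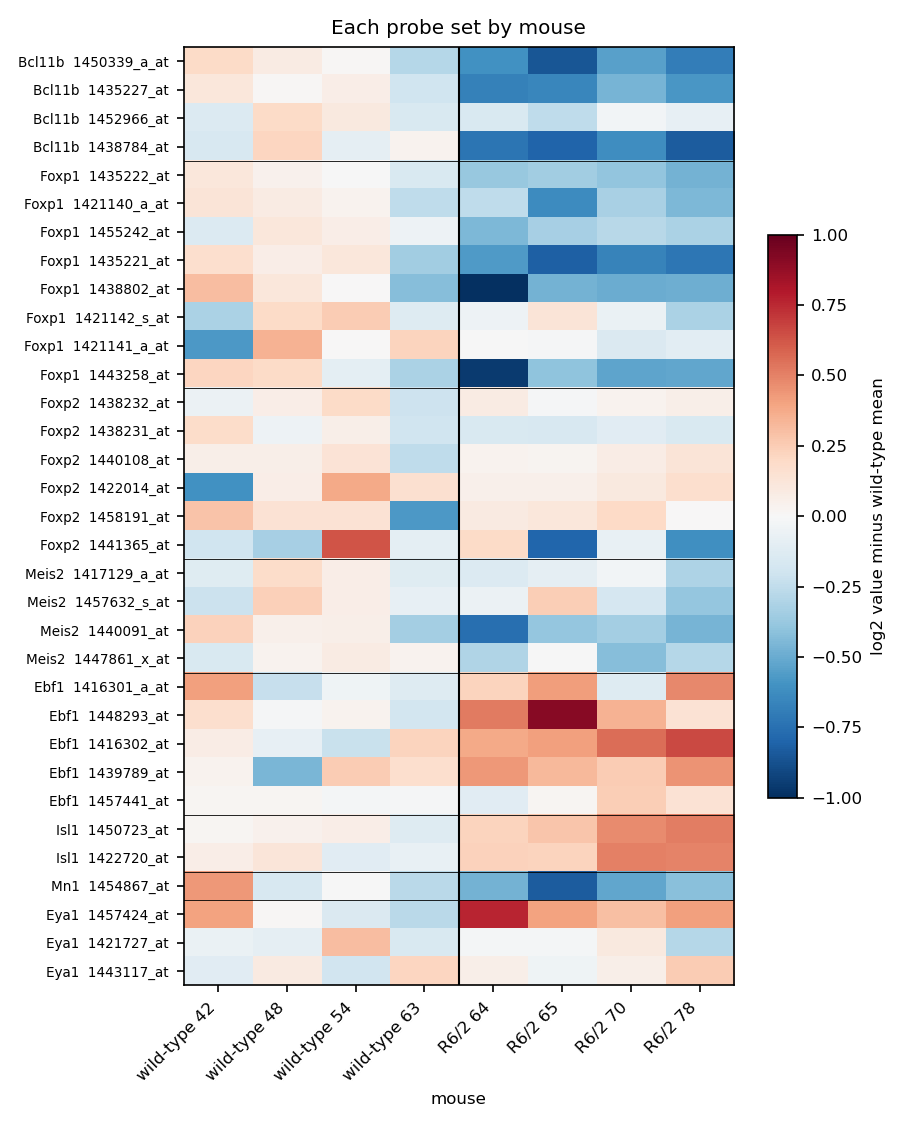
Each of the 33 probe sets (rows) on each of the 8 arrays (columns, named by genotype and mouse), as the log2 value minus the wild-type mean of that probe set; blue is lower, red is higher and the scale ends at -1 and 1, with values beyond drawn in the end colour. The R6/2 columns are blue over most Bcl11b and Foxp1 rows and red over the Isl1 and most Ebf1 rows. Wild-type mouse 63 is pale blue in many rows that are blue in R6/2 mice, and it also lies below the wild-type mean in the Isl1 and most Foxp2 rows.

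Probe sets of 1 gene were compared directly, each against the one with the highest mean of that gene, in 25 pairs. The genotype difference of Bcl11b 1450339_a_at was lower than that of 1452966_at by 0.54 on the log2 scale, and the within-array differences of the groups did not overlap (exact permutation, 2-sided, p = 0.0286, the lowest possible value with 70 arrangements). Foxp2 1438232_at and 1438231_at, which share a source sequence, also differed at that smallest p, by 0.19. Adjusted by Benjamini-Hochberg over the 25 pairs, none passed (exact permutation, adjusted p of at least 0.286). The spread among probe sets of Foxp1 and of Bcl11b is thus a description at this number of mice.

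The marker genes of medium spiny neurons fell by more than most of the factors. Of 10 measured markers, among them the DARPP-32 gene Ppp1r1b and the dopamine receptor genes Drd1 and Drd2, 9 were called lower, from Penk (the enkephalin precursor, -1.29 ± 0.089, log2 and SE) upward, while Tac1 (the substance P precursor) differed by 0.021 ± 0.091. Genes by their highest-mean probe set were called lower in 5.13% and higher in 7.29% of 18193 cases. The markers' mean fell by 0.90 on the log2 scale. Relative to it, on the same arrays, Foxp1 was higher in R6/2 mice by 0.50, Meis2 by 0.76, Foxp2 by 0.94, Ebf1 by 1.15, Isl1 by 1.27 and Eya1 by 1.37. The groups did not overlap for any of these 6 (exact 2-sided permutation p = 0.0286 each, the smallest possible, adjusted p = 0.0381 over the 8 comparisons). Bcl11b and Mn1 differed from the marker mean by 0.23 and 0.34, with overlapping groups (exact permutation p = 0.0857 for both). These are ratios within an array and show unequal change only. Foxp2, Meis2, Ebf1 and Eya1 were not called by these probe sets, so their ratios mostly restate the fall of the markers. By the highest-mean probe set of each, wild-type mouse 63 was the lowest wild-type mouse for Bcl11b, Foxp1 and Mn1. It was also the lowest for Isl1, which was called higher, and for Foxp2 and Eya1, which were not called. Mouse 42 was the lowest by Bcl11b 1438784_at and by Foxp1 1455242_at, 1421142_s_at and 1421141_a_at. Wild-type mouse 63 also had the lowest marker score of its group (-0.21, averaged over markers after subtracting each one's wild-type mean). R6/2 mice had scores from -0.92 to -0.87. Scored likewise, markers of thalamus and pallidum gave 0.67 in wild-type mouse 63. They gave -0.27 to -0.14 in the other wild-type mice and -0.40 to -0.25 in R6/2 mice. The part of such tissue in the low values of mouse 63 was not tested.

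**Figure D4:**
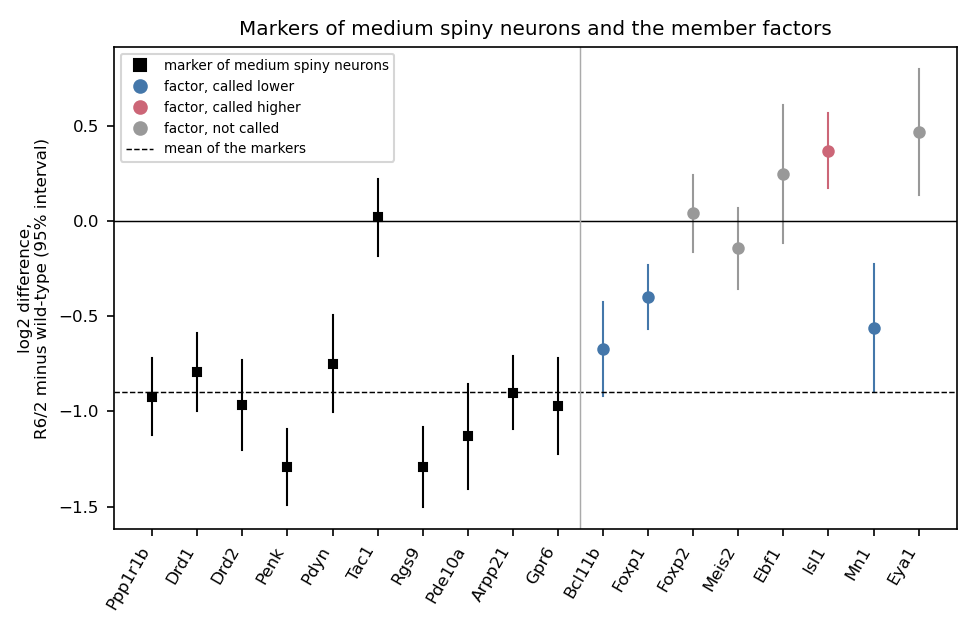
Log2 difference, R6/2 minus wild-type, with its 95% interval for 10 markers of medium spiny neurons (squares) and the 8 measured factors (circles, highest-mean probe set, coloured by call); the dashed line is the markers' mean of -0.90. Among the factors, only the interval of Bcl11b crosses that line, from -0.92 to -0.42. That of Mn1 ends just short of it, at -0.897 against -0.8996.

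Other cell types express some of these factors. Cortical projection neurons express Bcl11b, Foxp1, Foxp2 and Meis2, and 1 of 9 of their measured markers, the zinc transporter gene Slc30a3, was called lower. All 9 had negative differences, with a median of -0.67 (log2), and 7 of them had an unadjusted p under 0.05. Their score lay between -0.67 and 0.41 in the controls and between -1.20 and -0.15 in R6/2 mice, and Slc17a7, the vesicular glutamate transporter gene, ran from 5.80 to 8.66 and from 5.08 to 7.64. With that score as a covariate, Bcl11b fell by 0.62 with 1435227_at (limma adjusted p = 0.0344) and by 0.70 with 1438784_at (0.0294), while 1450339_a_at differed by -0.58 (0.0754). The covariate left these 2 probe sets called lower and 0 higher, and over all probe sets it left 1.64% called lower and 1.73% higher. Several calls were lost at differences of similar or larger size than without the covariate. Foxp1 differed by -0.38 with 1435222_at (limma adjusted p = 0.0932), by -0.66 with 1435221_at (0.0643), by -0.73 with 1443258_at (0.0867) and by -0.44 with 1455242_at (0.0528). Meis2 1440091_at differed by -0.60 (limma adjusted p = 0.105), Ebf1 1416302_at by 0.59 (0.0649) and Isl1 1422720_at by 0.39 (0.152). Other lost calls had smaller differences than without the covariate. Mn1 differed by -0.42 (limma adjusted p = 0.320), Foxp1 1421140_a_at by -0.31 (0.309) and Isl1 1450723_at by 0.30 (0.223). Of 5 measured markers of cholinergic interneurons, which express Isl1, limma called 0 (1 at an unadjusted p under 0.05), and their score lay between -0.046 and 0.075 in the controls and between -0.25 and -0.11 in R6/2 mice. The part of cortical projection neurons in the members' differences was not tested beyond the covariate, and that of cholinergic interneurons was not tested.

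Vascular markers, of which Cldn5 and Flt1 (2 of 9) were called lower, scored -0.14 to 0.068 in wild-type and -0.28 to -0.13 in R6/2 mice, with differences from Cldn5 (a tight junction protein, -0.84 ± 0.14) to Abcc9. Foxp1 and Ebf1 are also active in vascular cells. Of 8 markers of other interneurons 3 were called lower (Sst, Npy and Nos1), of 8 astrocyte markers 2 (Slc1a3 and Aldoc), of 7 oligodendrocyte markers 1 (Mobp) and of 8 microglial markers 0 (2 at an unadjusted p under 0.05). Of 8 markers of ependymal and choroid plexus cells 1 was called lower (Ccdc153) and 1 higher (Enkur), and of 7 of thalamus and pallidum limma called 0 (2 at an unadjusted p under 0.05). The part of these cells in the members' differences was not tested.

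Relatives and partners of the 9 factors were called about as often as all genes in the lower direction. The list of 41 held, for example, other BCL11, FOXP, MEIS, EBF, LIM and EYA genes and their partners, and 38 were measured. Of these, 2 were called lower (5.26%, against 5.13% of all genes), 0 higher (against 7.29% of all genes) and 36 were not called. The median log2 difference was -0.050, against -0.0034 over all genes. An unadjusted p under 0.05, which many probe sets of the whole array also reach, was found for 8 of the 38. Lmo2, a LIM-only adaptor of transcription complexes, ran from 9.18 to 9.44 in the controls, against 7.96 to 8.35 in R6/2 mice. The groups lay far apart, and Lmo2 fell by 1.15 ± 0.097 (log2, SE) or 2.22-fold (limma adjusted p = 0.000283), more than any of the 33 probe sets of the 9 factors. Lhx2, a LIM homeodomain factor, ran from 6.74 to 7.06 and from 5.82 to 6.36 and fell by 0.72 ± 0.13 (limma adjusted p = 0.00728). Meis1, the paralog of Meis2, differed by 0.54 ± 0.16 with the groups overlapping (limma adjusted p = 0.0561), and without wild-type mouse 42, its highest wild-type value, 2 genes of the list were called higher.

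Of 27 measured genes in a list of 30 other transcription factors of the striatal lineage, 2 were called lower (7.41%, against 5.13% of all genes), 1 higher (3.70%, against 7.29%) and 24 were not called, with a median of 0.016. With so few calls these shares are near those of all genes. Rarb, a retinoic acid receptor, ran from 9.67 to 10.37 in the controls, against 9.32 to 9.61 in R6/2 mice, and fell by 0.50 ± 0.14 (log2, SE, limma adjusted p = 0.0435). Pou3f1, a POU domain factor, fell by 0.56 ± 0.15 (limma adjusted p = 0.0376) and by 0.60 ± 0.11 with its other probe set (limma adjusted p = 0.00770). Ikzf2, a zinc finger factor also called Helios, rose by 0.41 ± 0.090 (limma adjusted p = 0.0191), while its other probe sets differed by 0.37 and 0.0014 and were not called. The count called lower was 0 without R6/2 mouse 64, 70 or 78 or wild-type mouse 42, 48 or 54, and 1 without R6/2 mouse 65. The count called higher was 0 without wild-type mouse 48 and 2 without wild-type mouse 54.

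For the 4 factors whose highest-mean probe set was called, the most alike of 18192 other genes were found by the root mean square difference, over the 8 arrays, of log2 values minus the wild-type mean. This measure asks for the same size of change and the same spread among mice. Nearest to Bcl11b were Prom1 (0.027), a membrane glycoprotein, Tmem191c (0.059) and Ngef (0.061). Nearest to Foxp1 were Phf24 (0.030), Mllt6 (0.042) and Mtcl1 (0.047). Nearest to Isl1 were Sf3a1 (0.031), a splicing factor subunit, Ss18l1 (0.063) and Prepl (0.063). Nearest to Mn1 were Cit (0.069), the citron kinase, Dlk2 (0.087) and Lzts1 (0.089). Since every called gene with a like difference comes near on this measure, these names describe profiles only.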

How the data were processed

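Striatal total RNA of 4 R6/2 and 4 wild-type mice was hybridised to 1 array each, per the labels. The authors deposited log2 expression values per probe set, for which the submitters' processing notes name RMA and affy without a version. In RMA, background subtraction, joint normalization and summary over probes compress the differences of dim probe sets. Precision is limited by there being 8 arrays.

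Of 45101 probe sets 64 controls were left out. Names came from the platform annotation, where 34945 probe sets had 1 gene symbol, 932 had several, which were not named, and 9160 had none; 34741 matched RefSeq (GRCm38.p6) by Entrez ID. Genotypes were compared with limma 3.58.1 in R 4.3.3 (lmFit and eBayes, constant prior, 8 arrays), with Benjamini-Hochberg adjustment over all 45037 probe sets and calls at an adjusted p under 0.05. SEs are moderated, intervals are 95%, and folds are 2 raised to the size of the log2 difference. Gene lists used the probe set of each gene with the highest mean. Comparisons within arrays used exact 2-sided permutation tests, adjusted over the 8 measured factors or the 25 pairs. Scripts were tested on simulated data, and figures were drawn with matplotlib 3.10.9 in Python 3.11.15.

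Named were all 9 factors, up to 6 called genes of each list, extremes of each marker list and the 3 nearest genes of each called factor; other genes were named after their values were seen (Meis1, and the called or familiar markers). The members and lists were chosen with earlier results of these data known. Alternatives were quantile normalization, median centring, leaving out the dimmest 40%, 1 probe set or the mean of all per gene, leaving out _s_at and _x_at probe sets, an intensity trend, no moderation, array weights, leaving out each array, and, chosen after seeing the data, a cortical marker covariate.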

Additional observations from a re-analysis of the deposited data

Results flagged for a closer look

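In the Foxp1 probe set 1438802_at, R6/2 mouse 64 stood below the other 3 R6/2 mice, at 7.22 against 7.90 to 7.92. In the Foxp2 probe set 1458191_at, wild-type mouse 63 stood below the other 3 wild-type mice, at 6.02 against 6.74 to 6.88. Both were set apart by a gap to the nearest other mouse that took up most of the range of the group, by Dixon's criterion for 4 samples. They are 2 of 66 groups examined (33 probe sets in 2 genotypes), and chance at 1 in 20 gives about 3.3. Neither probe set was called.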

How the results depend on the processing

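No paired analysis was possible because the 2 genotypes share no mouse numbers. No difference of a member probe set changed sign where it was called. Of the values of single probe sets under the alternatives, 461 stayed on the same side of the threshold, 65 lost the call and 11 gained it. The 461 include values of the 20 probe sets not called with all arrays, which had no call to lose. All 65 losses fell on the 10 probe sets called lower and the 3 called higher, so the share of calls lost was larger than these totals show. The exact tests, whose p cannot go below 0.0286, say nothing about stability. The 3 calls of Bcl11b and those of Foxp1 1435222_at and 1435221_at held in every fit except, for 1450339_a_at and both Foxp1 probe sets, the one with the cortical covariate.

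Leaving out each array gave 5 to 11 member probe sets called lower (10 with all arrays) and 0 to 4 called higher (3). By the highest-mean probe set it gave 2 to 3 member genes lower (3) and 0 to 2 higher (1). For other striatal factors it gave 0 to 3 lower (2) and 0 to 2 higher (1), and for paralogs and partners 2 to 3 lower (2) and 0 to 2 higher (0). Without moderation, where the shares over all probe sets were 1.94% lower and 2.19% higher, 5 member probe sets were lower and 0 higher, 0 member genes were higher, 0 other striatal factors were lower and 0 higher, and 1 paralog or partner was lower. With the cortical covariate, added after seeing the data, 2 member probe sets were lower and 0 higher (1.64% and 1.73% over all probe sets), 0 member genes were lower and 0 higher, 0 other striatal factors were lower and 0 higher, and 1 paralog or partner was lower. Array weights gave 2 member genes higher and 1 paralog or partner higher. The mean of all probe sets gave 2 member genes higher, 2 other striatal factors higher and 4 paralogs or partners lower. One paralog or partner was higher (1) with 1 probe set per gene, with the intensity trend and without the dimmest 40%. The causes were not tested.

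With 4 mice per genotype the exact test cannot go below p = 0.0286. Probe sets near background (1 of Foxp2, 1 of Ebf1, 2 of Eya1) bear little on their genes, and Sp9 was not analysed here.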
